A study of Homo sapiens with 8 samples.

Results

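The regions described here are m6A peaks that lay wholly in coding sequence and inside 1 exon of the transcript they were listed for. They were taken from the deposited peak lists of human osteosarcoma cells by both a transcript position of coding sequence only and a block count of 1. Of the 130622 listed peaks in 4 lists, 33880 met both, against 33928 coding peaks that ran over 2 or more blocks and so crossed an exon junction. MeRIP-seq, in which an antibody against m6A enriches fragmented RNA that is then sequenced beside unenriched input RNA, had been done on U2OS and 143B, established osteosarcoma lines grown in culture. Each line carried a lentiviral short hairpin against METTL14 (shMETTL14) or a control hairpin (NC), and the labels name no further allele, agent or clone. Each of the 4 combinations has 1 immunoprecipitated library with a peak list and 1 input library that enters only through that list, so no group has a replicate. With 1 value per group, whether groups overlap cannot be assessed, and no test between groups was made.

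m6A is a methyl mark that METTL3 and METTL14 together place on adenosines of messenger RNA, and it is removed by FTO or ALKBH5 and read by YTH domain proteins. It is known to be dense near stop codons, in 3' UTRs and inside long internal exons, and sparse close to exon junctions, where junction complexes shield the RNA. Genes with very large coding exons, such as those of giant proteins and zinc finger proteins, are known carriers of such internal m6A.

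Because a place is listed once per isoform, listed peaks of a list that shared 1 bp or more on a strand were joined to sites. The U2OS shMETTL14 list held 7829 such peaks at 3268 sites, and the U2OS NC list 8607 at 3542 sites. The 143B shMETTL14 list held 8517 at 3516 sites, and the 143B NC list 8927 at 3738 sites. Single-exon coding sites were 30.2% of all sites in U2OS shMETTL14, 30.3% in U2OS NC, 27.3% in 143B shMETTL14 and 30.5% in 143B NC. The 143B shMETTL14 list thus had the lowest share, and it was also the list with most sites in all, 12886. In U2OS the number of single-exon coding sites with shMETTL14 was 0.923 times that with NC, close to the 0.925 of all sites. With equal numbers of listed peaks per line, taken by smallest p-value, the ratio was 1.05, so this direction turned. In 143B the ratio was 0.941 for these sites and 1.05 for all sites, and with equal numbers it was 0.849 for these sites. The 143B classes went different ways, with ratios of 1.16 for coding sites across junctions, 1.09 for stop codon sites and 1.09 for 3' UTR sites. Counts and read depth are unknown, and fewer cells, less RNA and weaker methylation of a gene cannot be told apart in them.

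The "single exon" of the rule held for the site in most cases, but it depended on the isoform. Between 77.9% of sites in U2OS shMETTL14 and 79.4% in 143B NC had only single-exon coding peaks listed. The range over the lists for sites that also had a coding peak across a junction, on another isoform or beside it, was 10.1% to 11.1%. Sites that also had a peak reaching into a UTR made up 12.6% to 13.2%. A site was listed on average 2.39 to 2.43 times, and at most 42 times.

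Peaks inside 1 exon were narrow. The median width was 179 nt in U2OS shMETTL14 and 178 nt in U2OS NC, and 181 nt in 143B shMETTL14 and 179 nt in 143B NC. Coding peaks across junctions had a median of 269 nt in 143B shMETTL14 and 241 nt in each of the other lists. The upper tail was heavier in 1 list. Peaks of 500 nt or more made up 6.96% in U2OS shMETTL14 and 6.49% in U2OS NC, against 9.98% in 143B shMETTL14 and 8.30% in 143B NC. Those of 1000 nt or more numbered 63 in U2OS shMETTL14 and 78 in U2OS NC, and 120 in 143B shMETTL14 and 83 in 143B NC. At the other end, peaks of at most 61 nt were 14.4% of the 143B shMETTL14 list and 17.0% to 17.1% of the other lists. Widths came in steps: 74.4% to 78.4% were a multiple of 30 nt or 1 nt more.

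**Figure D1:**
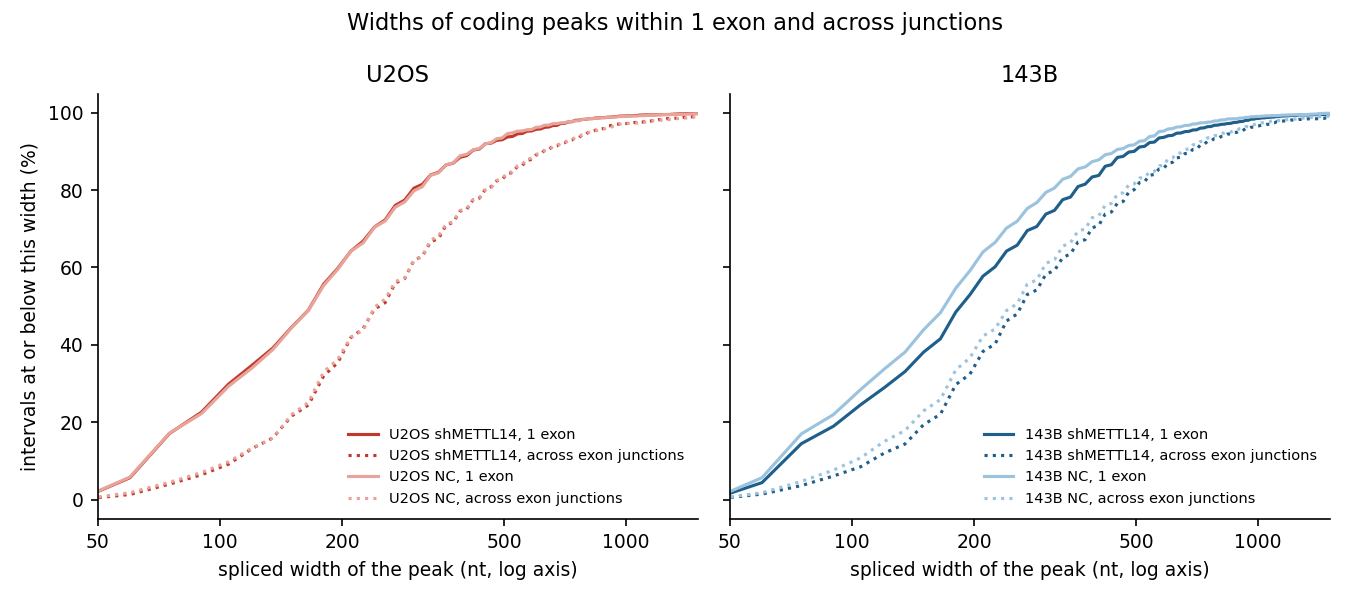
Cumulative share of distinct peak intervals (vertical axis, %) at or below each spliced width (horizontal axis, nt, log scale) in U2OS and 143B, for coding peaks inside 1 exon (solid) and across exon junctions (dotted). The solid curves lie left of the dotted ones, with medians of 178 to 181 nt against 241 to 269 nt, and the 143B shMETTL14 curve lies to the right of 143B NC.

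The width gap to junction peaks came from peaks over many exons, not from those next to the boundary of the rule. Coding peaks over exactly 2 blocks had a median width of 180 nt in U2OS shMETTL14 and 179 nt in U2OS NC, and 180 nt in 143B shMETTL14 and 179 nt in 143B NC, almost the same as peaks with 1 block. They differed in the authors' fold enrichment, a linear ratio of immunoprecipitated over input signal. Its median was 3.63 for 1 block and 2.75 for 2 blocks in U2OS shMETTL14, and 3.85 and 2.75 in 143B shMETTL14. In the NC lists it was 3.63 for 1 block and 2.89 for 2 blocks in U2OS, and 3.99 and 3.02 in 143B. They also lay on shorter transcripts, with a median RNA length of 3386 to 3403 nt for 2 blocks against 4003 to 4064 nt for 1 block.

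Genes with these peaks had longer transcripts in the median than other genes with m6A, with wide overlap. The median over genes of the longest listed transcript was 4530 nt in U2OS shMETTL14 and 4531 nt in U2OS NC for genes with a single-exon coding peak. In U2OS shMETTL14 the lower and upper quartiles were 3090 and 6713.5 nt for these genes, and 2274 and 5082 nt for the others. For genes with peaks but none of this kind it was 3455 nt in U2OS shMETTL14 and 3443 nt in U2OS NC. In 143B shMETTL14 the medians were 4550 nt with and 3286 nt without such a peak, and in 143B NC 4555 nt with and 3287 nt without. A transcript of 10000 nt or more was listed for 7.34% to 7.62% of the genes with a single-exon coding peak and for 2.39% to 2.87% of the others. Length also went with number: genes with 1 site had a median of 4011 to 4113.5 nt, and genes with 3 or more sites 7415 to 7642 nt. The peak itself covered little of its transcript, with a median of 4.15% in U2OS shMETTL14, 4.31% in U2OS NC, 4.81% in 143B shMETTL14 and 4.19% in 143B NC. Longer transcripts offer more places for a peak, and this was not adjusted for.

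Single-exon coding peaks were found on 2215 genes in U2OS shMETTL14 and 2349 in U2OS NC, and on 2351 in 143B shMETTL14 and 2397 in 143B NC. That was 34.0% to 36.6% of the genes with any peak. In all, 4044 genes carried one in at least 1 list, of which 1053 did so in all 4, 611 in 3, 887 in 2 and 1493 in 1. Between 69.0% and 71.3% of the genes had 1 site per list. Most of these genes also carried m6A elsewhere. No peak of another class was listed for 30.5% to 36.6% of them, while 29.1% to 31.2% also had a coding peak across a junction, 24.3% to 28.9% a stop codon peak and 30.2% to 35.8% a 3' UTR peak.

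The study asks which m6A peaks differ between shMETTL14 and NC. A site was called gained when it lay in the shMETTL14 list and overlapped no peak of any class, on the same strand, in the NC list of that line, and lost when the reverse held. Both words describe lists, not a measured change in methylation. In U2OS, 943 of 3268 shMETTL14 sites were gained (28.9%, exact Clopper-Pearson 95% interval 27.3 to 30.4), beside 24.9% of all U2OS shMETTL14 sites. Lost were 1364 of 3542 U2OS NC sites (38.5%, interval 36.9 to 40.1), beside 31.2% of all U2OS NC sites. In 143B, 1195 of 3516 shMETTL14 sites were gained (34.0%, interval 32.4 to 35.6), beside 32.0% of all 143B shMETTL14 sites, a share near that background. Lost were 1047 of 3738 143B NC sites (28.0%, interval 26.6 to 29.5), beside 24.6% of all 143B NC sites. The lost share exceeded the gained one in U2OS, and the gained share exceeded the lost one in 143B, as also held for all sites. The 143B direction depended on the setting: when the partner had to be a single-exon coding peak, 41.7% were gained and 42.3% lost, and with equal numbers of listed peaks, taken by smallest p-value, 30.3% were gained and 29.8% lost. The intervals cover counting error only and treat sites as independent.

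By position in the transcript, single-exon coding sites were nearer to 3' UTR sites than to sites across junctions and over stop codons. The 143B gained share lay between, at 34.0% against 41.0% in 3' UTRs and 24.9% across junctions. Sharing of start codon and 5' UTR sites was not computed. Coding sites across junctions were gained in 17.3% and lost in 20.2% of cases in U2OS, and gained in 24.9% and lost in 14.8% in 143B. Stop codon sites were gained in 10.3% and lost in 13.4% in U2OS, and gained in 12.8% and lost in 10.3% in 143B. Sites in 3' UTRs were gained in 31.3% and lost in 37.7% in U2OS, and gained in 41.0% and lost in 30.1% in 143B.

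**Figure D2:**
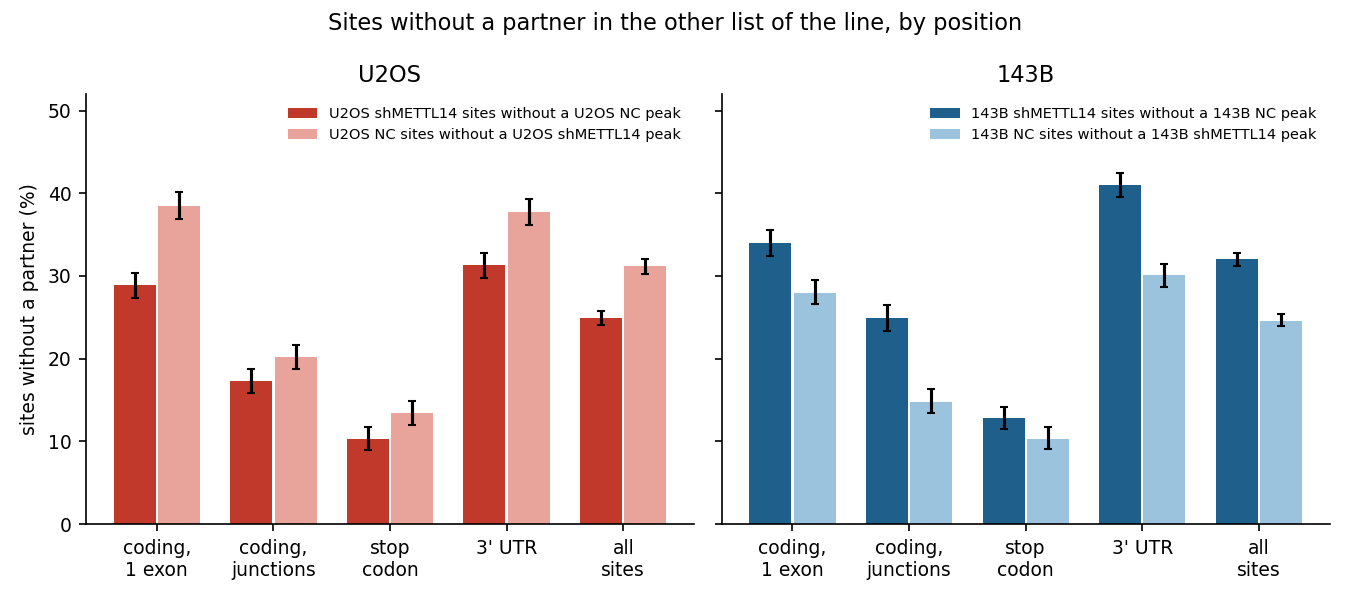
Share of sites (%) without an overlapping peak in the other list of the line, by position in the transcript, for shMETTL14 sites without an NC peak and for NC sites without an shMETTL14 peak; bars are shares and whiskers exact 95% Clopper-Pearson intervals. Single-exon coding sites reach 28.9% and 38.5% in U2OS and 34.0% and 28.0% in 143B, above coding sites across junctions in each comparison.

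Width went with most of that gap. In U2OS, the gained share of single-exon coding sites was 60.2% at up to 61 nt, 49.4% at 62 to 121 nt, 25.4% at 122 to 241 nt, 5.34% at 242 to 499 nt and 0.426% at 500 nt or more. The lost share in the same width classes was 64.7%, 63.1%, 39.1%, 12% and 2.02%. Coding sites across junctions were close to this in U2OS, with gained shares of 52.9%, 53.0%, 27.3%, 4.79% and 0%, the last of 498 sites. Their lost shares were 64.0%, 60.8%, 28.7%, 7.88% and 0.188%. At like width the kinds were thus closer than over all widths, and the widest remaining gap in U2OS was in the lost share at 122 to 241 nt. In 143B the gained share of single-exon sites fell along the same classes as 64.9%, 60.7%, 35.0%, 12.1% and 2.11%, and that of junction sites as 70.1%, 69.8%, 44.1%, 11.7% and 0.767%. The 143B lost share was 53.8%, 48.9%, 26.6%, 5.52% and 0.317% for single-exon sites and 58.1%, 47.2%, 22.2%, 3.41% and 0.198% for junction sites. In 143B, then, single-exon sites were less often gained than junction sites of up to 241 nt, although over all widths they were gained more often.

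**Figure D3:**
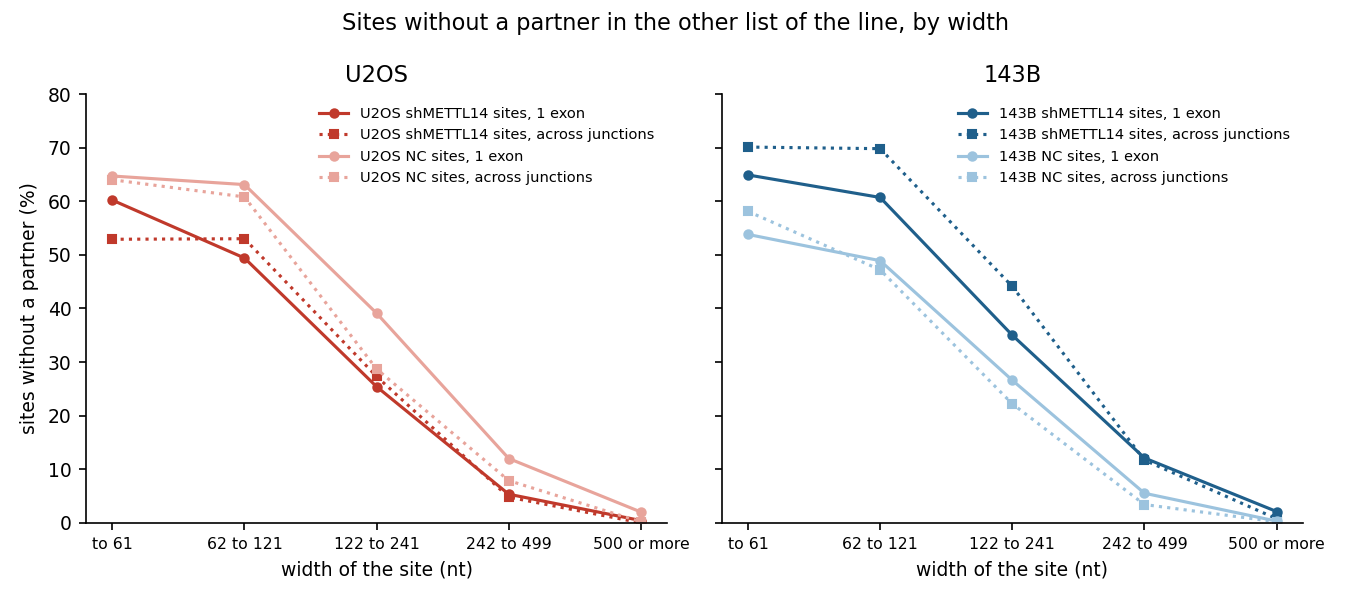
Share of sites (%) without an overlapping peak in the other list of the line, by width class of the site (nt), for single-exon coding sites (solid, circles) and coding sites across junctions (dotted, squares). Every curve is at 52.9% or more at up to 61 nt and at 2.11% or less at 500 nt or more, and each falls with width except for gained junction sites in U2OS between 52.9% and 53.0% in the narrowest classes.

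Unshared sites were thus mostly narrow ones with weak support in the authors' own statistic. Gained sites in U2OS had a median width of 94 nt against 210 nt for the shared shMETTL14 sites, and lost sites 120 nt against 229.5 nt for the shared NC sites. In 143B the medians were 120 nt for gained sites against 241 nt for shared shMETTL14 sites, and 100 nt for lost sites against 211 nt for shared NC sites. In the quartile of sites with the smallest authors' p-values, 2.82% were gained and 3.72% lost in U2OS. In the quartile with the largest p-values, 54.0% were gained and 64.6% lost. Fold enrichment showed no such order: from the lowest to the highest quartile, the U2OS lost share was 40.1%, 39.3%, 32.3% and 42.3%. The gene of an unshared site mostly still had a peak elsewhere in the other list, for 73.2% of gained and 68.3% of lost sites in U2OS, and for 71.1% of gained and 77.5% of lost sites in 143B.

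A shared site kept its class in most cases. Among shared U2OS sites, 81.3% of those with shMETTL14 overlapped another single-exon coding peak with NC, and 85.5% of those with NC did so with shMETTL14. Among shared 143B sites, 88.3% of those with shMETTL14 overlapped a single-exon coding peak with NC, and 80.1% of those with NC did so with shMETTL14. The 143B lists were not symmetric: 164 shMETTL14 sites overlapped only junction-crossing coding peaks of NC, whereas 345 NC sites overlapped only junction-crossing coding peaks of shMETTL14. Where 1 site met exactly 1 site in the other list, the width in U2OS had a median of 211 nt with shMETTL14 and 241 nt with NC over 1675 pairs. The median difference, shMETTL14 minus NC, was -13 nt, with 39.0% of pairs wider and 52.8% narrower with shMETTL14. In 143B the medians were 243 nt with shMETTL14 and 223 nt with NC over 1765 pairs. There the median difference was 30 nt, with 57.9% of pairs wider and 36.3% narrower with shMETTL14. Merging went the same way. In U2OS 56 shMETTL14 sites spanned 2 or more NC sites each and 81 NC sites spanned 2 or more shMETTL14 sites, and in 143B these numbers were 160 and 69.

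Joined over all lists, single-exon coding peaks made up 6977 loci on 4032 genes. Of these, 2061 had a peak of some class in all 4 lists (29.5%, interval 28.5 to 30.6), beside 30.1% of all 18714 loci of the lists. A further 1119 had one in 3 lists (16.0%), 1507 in 2 (21.6%) and 2290 in 1 (32.8%). The more lists a locus had, the wider it was, which joining itself favours: the median width was 359 nt for 4 lists, 210 nt for 3, 180 nt for 2 and 91 nt for 1. Median fold enrichment showed no such order. For loci in 4, 3, 2 and 1 lists it was 3.92, 3.39, 3.65 and 3.99 in U2OS shMETTL14 and 4.03, 3.53, 3.53 and 3.70 in U2OS NC. In 143B it was 4.54, 3.66, 3.46 and 3.60 with shMETTL14 and 4.48, 3.91, 3.91 and 4.24 with NC, so that in both 143B lists and in U2OS NC loci in all 4 lists had the highest median. When only single-exon coding peaks were counted, 1062 loci (15.2%) were in all 4 lists. Loci of 1 list numbered 367 for U2OS shMETTL14, 626 for U2OS NC, 645 for 143B shMETTL14 and 652 for 143B NC.

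**Figure D4:**
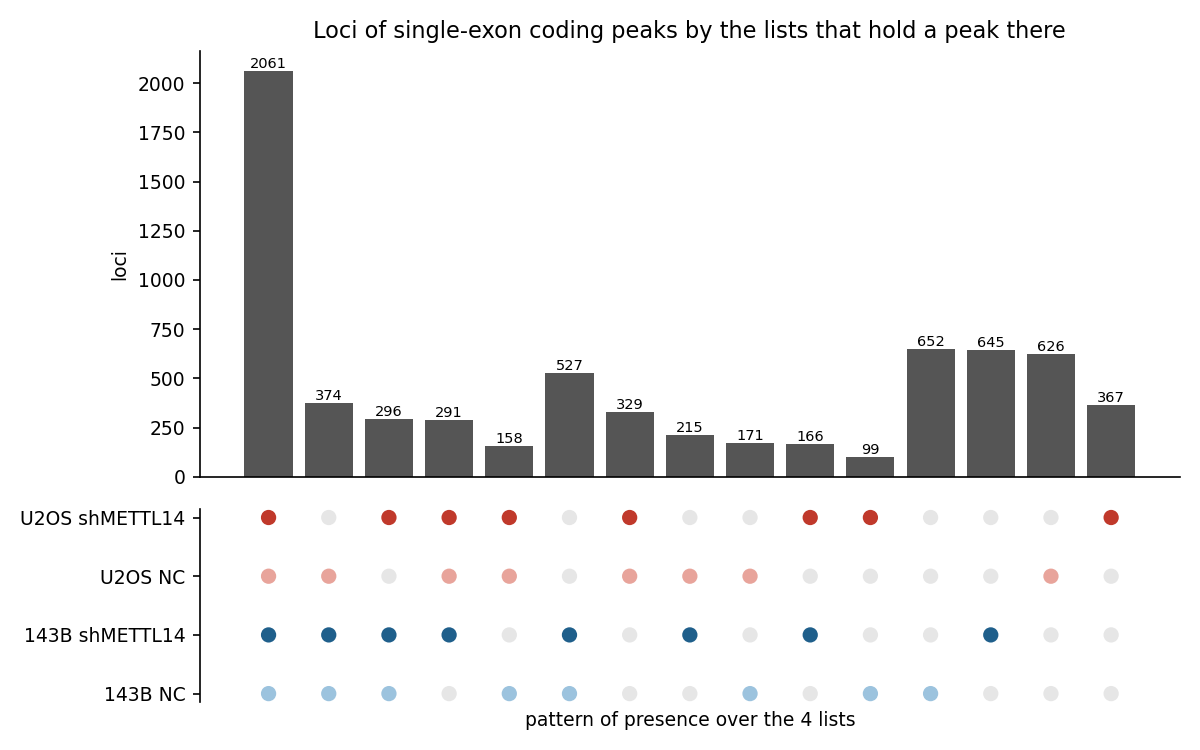
Number of loci of single-exon coding peaks (bars) for each pattern of lists with a peak there; filled dots under a bar mark the lists that hold one. The pattern with all 4 lists has 2061 loci, and the largest pattern of 2 lists, both 143B lists, has 527.

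Between the lines, 143B sites lacked a partner more often than between the hairpins, and U2OS sites about as often. Of U2OS shMETTL14 sites 27.6% had no 143B shMETTL14 peak, beside 25.0% of all sites, and of 143B shMETTL14 sites 45.7% had no U2OS shMETTL14 peak, beside 40.1%. Of U2OS NC sites 37.7% had no 143B NC peak, beside 34.3% of all sites, and of 143B NC sites 40.4% had no U2OS NC peak, beside 36.9%. Peaks in both lists of 1 line and none of the other were found at 329 loci for U2OS and 527 for 143B.

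Genes with many loci had long transcripts. In all, 16 genes had 10 or more loci, the one with the shortest longest transcript being PRDM2, a chromatin regulator, with 7957 nt, and the 167 genes with 5 or more held 1113 loci (16.0%). DST, a plakin that links cytoskeletal filaments, had most, with 23 loci. It had 12 sites in U2OS shMETTL14 and 14 in U2OS NC, and 9 in 143B shMETTL14 and 11 in 143B NC. MACF1, a related linker of actin and microtubules, had 12 loci, with 5 sites in U2OS shMETTL14 and 9 in U2OS NC, and 5 in 143B shMETTL14 and 8 in 143B NC. ALMS1, a centrosome and basal body protein, had 13 loci, with 5 sites in U2OS shMETTL14 and 8 in U2OS NC, and 6 in 143B shMETTL14 and 10 in 143B NC. DST, MACF1 and ALMS1 thus had fewer sites with shMETTL14 in both lines. AKAP9, an anchor of protein kinase A at centrosome and Golgi, went different ways, with 4 sites in U2OS shMETTL14 and 7 in U2OS NC, but 8 in 143B shMETTL14 and 5 in 143B NC. KIAA2018, now USF3, had 7 sites in U2OS shMETTL14 and 9 in U2OS NC, and 7 in 143B shMETTL14 and 8 in 143B NC. ZFHX4, a zinc finger homeobox factor, had 5 sites in U2OS shMETTL14 and 6 in U2OS NC, and 8 in 143B shMETTL14 and 7 in 143B NC.

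AHNAK, a giant scaffold protein encoded almost wholly by 1 exon, was tiled with peaks in every list. It had 19 sites over 7449 nt in U2OS shMETTL14 and 21 over 8139 nt in U2OS NC, and 21 over 10776 nt in 143B shMETTL14 and 20 over 10866 nt in 143B NC. Their fold enrichment was low, with a median of 2.02 in U2OS shMETTL14 and 1.92 in U2OS NC, and 2.61 in 143B shMETTL14 and 2.80 in 143B NC. Of its 18 loci, 13 had a peak in all 4 lists, and its covered length was higher in both 143B lists than in both U2OS lists. Its relative AHNAK2 was almost private to 143B, with 13 sites in 143B shMETTL14 and 17 in 143B NC, against 2 in each U2OS list. For AHNAK2 the number of sites went with the line more than with the hairpin, and its RNA level was not analysed here.

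**Figure D5:**
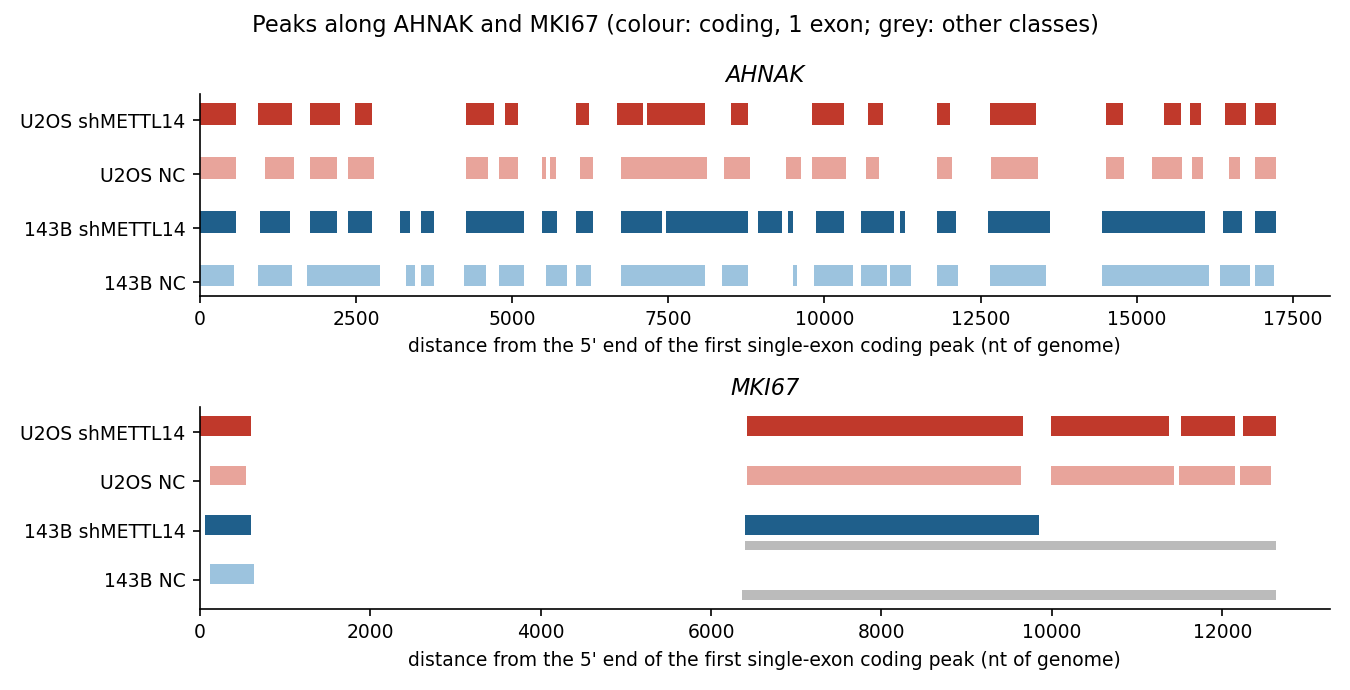
Peaks along AHNAK and MKI67 in the 4 lists, as distance from the 5' end of the first single-exon coding peak (nt of genome, horizontal axis); coloured boxes are single-exon coding sites and thin grey boxes peaks of other classes. AHNAK is tiled in all 4 lists, with 19, 21, 21 and 20 sites from top to bottom, and in MKI67 the 143B lists hold a stop codon peak (grey) where the U2OS lists hold several single-exon coding sites.

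The widest peaks also lay in giant exons. A site of 3924 nt on ANKRD11, a chromatin regulator, was the widest in U2OS shMETTL14 (chromosome 16, 89347968 to 89351891, minus strand), and the U2OS NC site there was 3267 nt. In 143B the place on ANKRD11 held coding peaks across junctions in both lists, at a fold enrichment of 8.41 with shMETTL14 and 9.36 with NC. AKAP12, a kinase anchor protein, had 1 site of 3895 nt in 143B shMETTL14 and 1 of 3925 nt in 143B NC. In U2OS AKAP12, with 2 loci over all lists, had 7 sites with shMETTL14 and 6 with NC. They were at most 729 nt wide with shMETTL14 and 1018 nt with NC. MKI67, the proliferation marker Ki-67, had 5 sites over 6242 nt in U2OS shMETTL14 and 5 over 6092 nt in U2OS NC. It had 2 sites over 3987 nt in 143B shMETTL14, 1 of them 3447 nt wide, and 1 of 510 nt in 143B NC, where a stop codon peak covered the rest. CENPF, a kinetochore protein, had a widest site of 2308 nt in U2OS shMETTL14 and 2278 nt in U2OS NC, and of 1409 nt in 143B shMETTL14 and 2308 nt in 143B NC. RIF1, which acts in replication timing and DNA repair, had a widest site of 1092 nt in each U2OS list, and of 2280 nt in 143B shMETTL14 and 1148 nt in 143B NC. A site count therefore depends on where the caller split a region, as AKAP12 and MKI67 show.

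Peaks on the longest transcripts differed in width. TTN, which encodes the muscle protein titin, has the longest listed transcript, 109224 nt, and had 1 site of 93 nt in 143B shMETTL14 and none in the other lists. SYNE1, a nuclear envelope linker with a transcript of 27748 nt, had sites in U2OS only, 2 with shMETTL14 and 1 with NC, of at most 85 nt. MACF1, with a transcript of 24828 nt, had a site of 510 nt in 143B shMETTL14, and DST, with one of 24269 nt, had a widest site of 361 nt in U2OS shMETTL14 and 499 nt in U2OS NC, and of 601 nt in 143B shMETTL14 and 481 nt in 143B NC.

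The highest fold enrichments of the lists are set side by side here and were not scaled to each other. ARID1A, a subunit of the SWI/SNF remodelling complex, led both U2OS lists with a site of 331 nt (chromosome 1, 27022925 to 27023255, plus strand), at 44.7 with shMETTL14 and 50.1 with NC. Counting all classes, the place was at 19.9 in 143B shMETTL14 and 32.6 in 143B NC. ALKBH5, the m6A demethylase, led 143B shMETTL14 at 46.0 (chromosome 17, 18087583 to 18087941, plus strand), against 31.3 in 143B NC, and was at 14.2 in U2OS shMETTL14 and 7.89 in U2OS NC. WDR26, a subunit of a ubiquitin ligase complex, had the highest value of all, 60.0 in 143B NC (chromosome 1, 224621390 to 224621807, minus strand), against 10.1 in 143B shMETTL14. In U2OS the peaks there were at 11.4 with shMETTL14 and 9.31 with NC. All 3 places had a peak in every list and so counted as shared, whatever their fold enrichment.

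Other leading sites of a list had lower values in the list beside it. The MACF1 site of 510 nt stood at 42.1 in 143B shMETTL14 and 7.83 in 143B NC, and the place was at 10.2 in U2OS shMETTL14 and 5.14 in U2OS NC. SCAF1, which binds the tail of RNA polymerase II, stood at 8.86 in 143B shMETTL14 and 33.9 in 143B NC, and TRO, an adhesion molecule, at 5.98 in 143B shMETTL14 and 35.2 in 143B NC. APBB1IP, an adaptor in integrin activation, was at 14.4 in 143B shMETTL14 and 37.8 in 143B NC, and had no peak there in U2OS. In U2OS, SASH1, a signalling scaffold, was at 29.4 with shMETTL14 and 3.12 with NC, and ZFPM1, a cofactor of GATA factors, at 31.6 with shMETTL14 and 18.0 with NC, where the overlapping peak lay over the stop codon. PLEKHH2 was at 26.1 with shMETTL14 and 6.63 with NC in U2OS. SETBP1, a nuclear protein that binds SET, was at 12 with shMETTL14 and 30.8 with NC in U2OS, ZNF606 at 16.3 with shMETTL14 and 30.8 with NC, and ZNF865 at 6.54 with shMETTL14 and 28.2 with NC. The counts behind these ratios are unknown, and the sites were chosen for a high value in 1 list, which favours a lower value in the others.

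Among loci with single-exon coding peaks in all 4 lists, KCTD1, a BTB domain repressor, ranked highest. It stood at 16.3 in U2OS shMETTL14 and 19.3 in U2OS NC, and at 38.8 in 143B shMETTL14 and 32.6 in 143B NC. ANO8, a membrane protein of the anoctamin family, stood at 16.3 in U2OS shMETTL14 and 24.4 in U2OS NC, and at 17.7 in 143B shMETTL14 and 24.8 in 143B NC. FMNL1, a formin that nucleates actin, stood at 24.0 in U2OS shMETTL14 and 21.8 in U2OS NC, and at 15.5 in 143B shMETTL14 and 19.6 in 143B NC. These loci were chosen for a high rank in every list. TRIM59, a ubiquitin ligase, stood at 22.9 in U2OS shMETTL14 and 16.7 in U2OS NC, and at 12.2 in 143B shMETTL14 and 17.0 in 143B NC. C19orf26, now CBARP, stood at 19.6 in U2OS shMETTL14 and 20.5 in U2OS NC, and at 12.2 in 143B shMETTL14 and 18.3 in 143B NC. KIAA1107, now BTBD8, stood at 15.3 in U2OS shMETTL14 and 8.56 in U2OS NC, and at 18.8 in 143B shMETTL14 and 20.9 in 143B NC.

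The gained sites with the highest fold enrichment in U2OS lay on FAM171A2 (24.0), on KANK1, a regulator of actin and adhesions (21.8), on NBEA, a neuronal trafficking protein (21.8), and on TMEM200A (19.6). FAM171A2, KANK1 and TMEM200A had peaks at the place in both 143B lists. KANK1 had 4 sites in U2OS shMETTL14 and 1 in U2OS NC, with 3 gained, beside 4 in each 143B list. The lost sites with the highest values in U2OS lay on CHRM4, a muscarinic receptor (25.7), and on PPM1E, a protein phosphatase, and ZC3H12C, of a family of ribonucleases (23.1 each). CHRM4 and PPM1E had no single-exon coding peak in any other list, whereas ZC3H12C had peaks there at 3.42 in 143B shMETTL14 and 7.17 in 143B NC.

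In 143B the leading gained sites lay on ZSWIM3 (33.2), on KIF24, a kinesin that acts on cilia (31.0), on the histone methyltransferase KMT2A (26.6) and on ZSCAN20 (23.3). ZSWIM3 had 3 sites in 143B shMETTL14 and none in the other lists. The leading lost sites lay on FOXO1, a transcription factor downstream of AKT (32.6), on GAB1, an adaptor of receptor kinases (27.4), on JPH3, which ties plasma membrane to endoplasmic reticulum (26.1), and on STON1, an endocytic adaptor (24.8). Each of these lost 143B places held a peak in both U2OS lists, for FOXO1 at 6.26 with shMETTL14 and 8.67 with NC, and for STON1 at 2.95 with shMETTL14 and 3.41 with NC.

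Loci gained or lost in both lines were about as frequent as among all loci. Of the 1619 loci with a single-exon coding peak in both shMETTL14 lists, 94 on 93 genes had no NC peak in either line (5.81%), beside 5.72% of the 7374 loci with a peak of any class in both shMETTL14 lists. Of the 1667 loci with a single-exon coding peak in both NC lists, 105 on 102 genes had no shMETTL14 peak in either line (6.30%), beside 5.07% of the 7087 loci with a peak of any class in both NC lists. Gained in both were ERG, an ETS transcription factor, at 15.3 in U2OS and 21.1 in 143B, ZRSR1, now ZRSR2P1, at 18.5 and 20.5, and ZNF628 at 16.3 and 13.3. CCDC136, GVQW1 and ZSCAN20 followed. ERG had a site of 160 nt in U2OS shMETTL14 and of 202 nt in 143B shMETTL14, listed on 10 transcripts in each, and no single-exon coding site in either NC list. Lost in both were CCDC71L, at 15.4 in U2OS NC and 9.78 in 143B NC, and MURC, now CAVIN4, a caveolar protein of muscle, at 8.99 in U2OS NC and 14.3 in 143B NC. ZNF19, SAMD15, C2orf81 and ANKRD26 followed, with values from 8.48 to 20.5. ZRSR1 has a near-identical relative, so its reads may be shared.

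Zinc finger genes, whose tandem fingers are usually coded by 1 last exon, were the largest group. Of 421 genes with a zinc finger family name and any peak, 353 had a single-exon coding peak (83.8%), at 714 loci. Of all 8758 genes with any peak in any list, 4032 carried such a locus (46.0%). The list goes by name, and so also holds a few genes of other kinds such as ZFP36 and ZFP36L1, which bind AU-rich RNA. They held 11.4% of the single-exon coding sites in U2OS shMETTL14 and 11.5% in U2OS NC, and 11.9% in 143B shMETTL14 and 9.50% in 143B NC. Of all sites they held 5.78% in U2OS shMETTL14 and 6.25% in U2OS NC, and 5.80% in 143B shMETTL14 and 5.18% in 143B NC. Chromosome 19, where many such genes cluster, had 250 of the 714 loci (35.0%), beside 515 of the 6977 single-exon coding loci of all genes. In U2OS 113 of 372 sites were gained (30.4%) and 185 of 409 lost (45.2%), beside 28.9% and 38.5% of all single-exon coding sites. In 143B 162 of 418 were gained (38.8%) and 87 of 355 lost (24.5%), beside 34.0% and 28.0%. The group thus followed the direction of each line, with 22.5% of its loci in all 4 lists against 29.5% of all single-exon coding loci. Within it, ZNF318 had 4 sites in U2OS shMETTL14 and 8 in U2OS NC, and 3 in 143B shMETTL14 and 4 in 143B NC. ZNF646 was largely a 143B gene here, with 7 sites in 143B shMETTL14 and 6 in 143B NC, against 1 in U2OS shMETTL14 and 0 in U2OS NC. ZNF407 likewise had 6 sites in 143B shMETTL14 and 5 in 143B NC, against 2 in U2OS shMETTL14 and 1 in U2OS NC. Zinc finger genes resemble each other, so reads may be split between relatives.

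Genes with a large coding exon had wider loci, with a median of 270 nt against 189.5 nt for zinc finger genes, and width moved with sharing as above. Of 78 listed genes with any peak, 75 had a single-exon coding peak (96.2%, beside 46.0% of all genes), at 390 loci. The list was written by hand with earlier results of these data known, so this share is no independent finding. Its loci lay on long transcripts, with a median longest RNA of 10553 nt, which was not adjusted for. ZNF292, ZNF318 and ZNF462 are on both this list and the zinc finger list. FAT1, FAT3, FAT4 and DCHS1 are also among the protocadherin, FAT and Dachsous genes below, and ZC3H13 among the m6A writers, erasers and readers. In all 4 lists were 159 of these (40.8%), beside 29.5% of all single-exon coding loci. In U2OS 32 of 234 sites were gained (13.7%) and 74 of 273 lost (27.1%), beside 28.9% and 38.5% of all single-exon coding sites. In 143B 74 of 269 were gained (27.5%) and 52 of 275 lost (18.9%), beside 34.0% and 28.0%. The part of width in these differences was not tested. SPEN, a transcriptional repressor, had 6 of its 7 loci in all 4 lists, and BOD1L1, which protects stalled replication forks, 7 of 9. At the other end, MAP1A, a microtubule-associated protein, had 0 of 7, with 6 sites in U2OS shMETTL14 and 7 in U2OS NC against 1 in each 143B list. SPEN, BOD1L1 and MAP1A were chosen after their values were seen.

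A list of genes taken to have their coding sequence in 1 exon was made by hand, was not checked against an annotation of the build, and may hold genes with more coding exons. Of its 37 genes with any peak, 25 had a single-exon coding peak (67.6%, beside 46.0% of all genes). None of these 25 genes had a coding peak across a junction, which the choice of the list largely fixes in advance. They had 43 loci, more of them in 143B: 26 sites in 143B shMETTL14 and 32 in 143B NC, against 11 in U2OS shMETTL14 and 16 in U2OS NC. IRS2, an adaptor of the insulin receptor, had 1 site in 143B shMETTL14 and 4 in 143B NC, of which 3 were lost, and none in U2OS. Its relative IRS1 had 3 sites in 143B shMETTL14 and 2 in 143B NC, and 1 in U2OS shMETTL14 and 2 in U2OS NC. FOXC2, a forkhead factor of mesenchyme, had 2 sites in each 143B list, with 1 gained and 1 lost, and none in U2OS. CEBPB, a bZIP factor named here after its values were seen, shows how class and presence differ. It had a single-exon coding site in U2OS shMETTL14 at 8.04, while U2OS NC had a start codon peak there at 18.7, and the 143B lists start codon peaks at 7.69 with shMETTL14 and 19.6 with NC.

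Protocadherin, FAT and Dachsous genes, which code for large cadherins, had fewer sites with shMETTL14 in U2OS, 11 against 21 with NC. Of 30 with any peak, 10 had a single-exon coding peak (33.3%, beside 46.0% of all genes). In U2OS 4 of 11 sites were gained (36.4%) and 15 of 21 lost (71.4%), beside 28.9% and 38.5% of all single-exon coding sites. In 143B 3 of 12 were gained (25.0%) and 2 of 11 lost (18.2%), beside 34.0% and 28.0%. FAT4 had 1 site in U2OS shMETTL14 and 4 in U2OS NC, and DCHS1, its ligand, 0 in U2OS shMETTL14 and 3 in U2OS NC. In 143B, DCHS1 had 1 site with shMETTL14 and 3 with NC, and FAT4 had none. FAT1 did not share this, with 6 sites in each U2OS list, and 10 in 143B shMETTL14 and 7 in 143B NC. The counts are small and sites of 1 gene are not independent.

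Among m6A writers, erasers and readers, 10 of 22 genes with any peak had a single-exon coding peak (45.5%, beside 46.0% of all genes), at 19 loci. Of these loci 11 had a peak in all 4 lists (57.9%), beside 29.5% of all single-exon coding loci. The number of loci is small. In U2OS 1 of 12 sites was gained and 1 of 12 lost (8.33% each), beside 28.9% and 38.5% of all single-exon coding sites. In 143B 3 of 9 were gained (33.3%) and 2 of 9 lost (22.2%), beside 34.0% and 28.0%, so the 143B shares were near those of all such sites. METTL14, the target of the hairpin, had a single-exon coding site in 143B shMETTL14 alone, 91 nt wide at a fold enrichment of 2.95 (chromosome 4, 119631325 to 119631415, plus strand). In U2OS the place held stop codon peaks, at 5.45 with shMETTL14 and 3.96 with NC, and in 143B NC it held none. These values are no measure of METTL14 RNA, so the knockdown cannot be checked from them. METTL3 had no single-exon coding peak in any list. RBM15, an RNA-binding subunit of the writer complex, had 5 loci, with 2 sites in U2OS shMETTL14 and 3 in U2OS NC, and 3 in 143B shMETTL14 and 4 in 143B NC. ZC3H13, another subunit, had 2 sites in each U2OS list and none in 143B, where 2 of its 3 places held start codon and junction-crossing coding peaks, at 14.4 with shMETTL14 and 11.4 with NC. KIAA1429, now VIRMA, the scaffold of the complex, had 0 sites in U2OS shMETTL14 and 1 in U2OS NC, and 1 in each 143B list. The 143B sites of KIAA1429 lay at different places. That with shMETTL14 overlapped no NC peak, and that with NC overlapped a junction-crossing coding peak with shMETTL14.

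MN1, a transcriptional regulator outside these lists, had 1 site in U2OS shMETTL14 and 3 in U2OS NC, all of which were lost, and none in 143B.

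Of 16 bone and osteosarcoma genes with any peak, 7 had a single-exon coding peak (43.8%, beside the 46.0% of all genes), with 7 sites in U2OS shMETTL14 and 5 in U2OS NC, and 7 in 143B shMETTL14 and 3 in 143B NC. BMP4, a bone morphogenetic protein, had 2 sites of at most 61 nt in 143B shMETTL14, both gained, and 0 in 143B NC, beside 1 in each U2OS list. COL12A1, a fibril-associated collagen, had 2 sites in U2OS shMETTL14 and 1 in each of the other lists. BMP2 had 1 site in each U2OS list, at 4.49 with shMETTL14 and 4.22 with NC, where the 143B lists had stop codon peaks. RUNX2, the osteoblast transcription factor, had peaks in all 4 lists, but no single-exon coding peak. The remaining genes of the 25 on this list had no peak in any list. They were SP7, ALPL, BGLAP, SPP1, IBSP, DLX5, PTH1R, COL1A2 and CDKN2A. Of 50 ribosomal protein genes with any peak, 5 had a single-exon coding peak (10.0%, beside 46.0% of all genes), with 5 sites in U2OS shMETTL14 and 4 in U2OS NC, and 3 in 143B shMETTL14 and 6 in 143B NC. RPL28 had 3 sites in U2OS shMETTL14 and 0 in U2OS NC, and 2 in each 143B list, all at a fold enrichment below 2. RPL10 had 1 site in U2OS shMETTL14 and 2 in U2OS NC, and 1 in each 143B list. On chromosome X lay the U2OS shMETTL14 site, at 1.95, and 1 U2OS NC site, at 1.86. The other U2OS NC site, at 5.14, and both 143B sites lay on JH159150.3, a sequence outside chromosomes 1 to 22 and X. The RPL10 counts thus mix places on different sequences, and the assignment of reads between them was not tested. Ribosomal protein genes have many near-identical copies. Of 22 marker genes of other cell types, 6 had a peak of any class and 3 a single-exon coding peak, CD68, KRT18 and RBFOX3. CD68 and KRT8 had a peak of some class in all 4 lists, KRT18 in both 143B lists, RBFOX3 in both U2OS lists, PRG4 in both shMETTL14 lists and KRT14 in U2OS NC. The other markers, among them PTPRC, EPCAM and PECAM1, which mark leukocytes, epithelium and endothelium, had no peak in any list. The presence or absence of a peak is no measure of the RNA of these genes.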

How the data were processed

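The 4 deposited peak lists, 1 for each immunoprecipitated library, hold 13 columns. The submitters' processing notes name FastQC 0.11.5, Trimmomatic, HISAT2 and the genome build hg19 (GRCh37). Caller, threshold and annotation of the peaks are not given in the sources used. Per the file headers, each peak has spliced blocks, a transcript and its length, a p-value and a fold enrichment. The authors made the fold enrichment, a linear ratio, and the p-value of each peak; here they only describe, rank or filter peaks inside 1 list. Block sizes, RNA lengths and transcript regions were deposited by the authors too, as other values.

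Peaks of 1 block listed as coding sequence only were joined to sites within a list and to loci over the lists by same-strand overlap of their blocks of at least 1 bp. A site's fold enrichment and p-value are the best of its peaks, and its gene is that of 1 of them. Widths are spliced nt of distinct intervals unless sites are named, and coordinates are printed from 1. Intervals of shares are exact 95% Clopper-Pearson intervals. With 1 list per group no p-value was made between groups. The named genes are those with most loci, the highest fold enrichment per list, the best mean rank over the 4 lists, the leading lost and gained sites per line and in both lines, the widest sites and longest transcripts, METTL14, METTL3 and MN1, and the 3 genes with most loci of each gene list, on chromosomes 1 to 22 and X. A few genes that this rule names are not reported here. The regions, gene lists and rules were chosen with earlier results of these data known. Of 4032 gene names, 3730 matched a RefSeq symbol and 258 a synonym, from which current names were taken. Alternatives changed the overlap, the partner, the unit and the peaks used. The overlap step was tested on simulated data, drawn from 3542 U2OS NC sites: removed shares of 5.00%, 20.0% and 40.0% came back as 5.00%, 20.0% and 39.9%. Kept sites were moved by less than their width and so had to overlap themselves. This checks the code only, as split, merged or resized peaks were not simulated. Python 3.11.15, numpy 2.4.6, pandas 2.3.3, scipy 1.17.1 and matplotlib 3.10.9 were used.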

Additional observations from a re-analysis of the deposited data

Results flagged for a closer look

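Several measures went one way in U2OS and the opposite way in 143B, with 1 list per group, and none of these differences between the lines was tested. The median width difference between paired sites, shMETTL14 minus NC, was -13 nt in U2OS and 30 nt in 143B. In U2OS 28.9% of sites were gained and 38.5% lost, whereas in 143B 34.0% were gained and 28.0% lost. The 143B direction turned when the partner had to be a single-exon coding peak, with 41.7% gained and 42.3% lost.

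Zinc finger genes had 372 single-exon coding sites in U2OS shMETTL14 and 409 in U2OS NC, but 418 in 143B shMETTL14 and 355 in 143B NC. Protocadherin and FAT genes had 11 in U2OS shMETTL14 and 21 in U2OS NC, but 12 in 143B shMETTL14 and 11 in 143B NC. Ribosomal protein genes had 5 in U2OS shMETTL14 and 4 in U2OS NC, but 3 in 143B shMETTL14 and 6 in 143B NC.

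AHNAK had 19 sites in U2OS shMETTL14 and 21 in U2OS NC, but 21 in 143B shMETTL14 and 20 in 143B NC. ZFHX4 had 5 in U2OS shMETTL14 and 6 in U2OS NC, but 8 in 143B shMETTL14 and 7 in 143B NC. AKAP9 had 4 in U2OS shMETTL14 and 7 in U2OS NC, but 8 in 143B shMETTL14 and 5 in 143B NC. The whole 143B shMETTL14 list was longer than that of 143B NC, and the U2OS shMETTL14 list shorter than that of U2OS NC; the part of list length in these differences was not tested.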

How the results depend on the processing

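Shares are given in the order U2OS gained, U2OS lost, 143B gained and 143B lost, which were 28.9%, 38.5%, 34.0% and 28.0% in the report. With an overlap of at least 50% of the shorter site they were 32.9%, 42.4%, 38.5% and 32.7%, with 50% of both 52.1%, 58.5%, 56.7% and 54.8%, and with partners within 100 bp 25.0%, 34.6%, 30.2% and 23.7%. When the partner had to be a single-exon coding peak they were 42.1%, 47.4%, 41.7% and 42.3%, so that in 143B the lost share came to stand above the gained one. Counted in genes they were 10.3%, 16.2%, 12.9% and 8.97%. With equal numbers of listed peaks per line, taken by smallest p-value, they were 31.2%, 34.7%, 30.3% and 29.8%. With the members of lower p-value, a setting chosen after seeing the data, they were 10.6%, 17.8%, 13% and 11.4%. In the upper part by fold enrichment the gained shares were 27.3% in U2OS and 30.1% in 143B, and counted in listed peaks the 143B lost share was 25.9%. The cause of these shifts was not tested.

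The U2OS site ratio, shMETTL14 over NC, 0.923 in the report, turned to 1.05 with equal numbers, and the 143B ratio, 0.941, became 0.849. The difference in median width, shMETTL14 minus NC, was 1 nt in U2OS and turned to -0.5 nt in the upper part by fold enrichment and to -2 nt with equal numbers. In 143B it was 2 nt, and it became 6 nt for sites, 30 nt in the upper part by fold enrichment and 31 nt with equal numbers. U2OS NC sites without a 143B NC peak, 37.7%, became 41.6% and 63.1% with the 50% overlaps, 34.4% within 100 bp, 49.3% with a single-exon coding partner, 18.5% in genes, 34.6% in the upper part by fold enrichment and 20.0% with lower p-values. Loci in all 4 lists, 29.5%, became 32.1% within 100 bp, 15.2% with single-exon coding partners, 59.3% in genes, 34.4% in the upper part by fold enrichment, 30.8% with equal numbers and 50.6% with lower p-values. Of the alternative values computed, 3 turned direction, 47 moved beyond the interval of the main value and 25 were counted as unchanged. Unchanged meant inside that interval or, for the site ratios, which have no interval, within a fixed fold limit of the main ratio. The 143B ratio of 0.849 was counted as unchanged by that limit.

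Depth is unknown and each group has 1 list, so the spread between replicates cannot be given. No paired analysis was possible because each group has 1 list and no result comes from a test.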

Other observations

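Mitochondrially encoded transcripts gave 9 single-exon coding loci on 8 genes, and all 9 had a peak in all 4 lists, beside 29.5% of all single-exon coding loci. These genes were looked at after their values were seen. The loci lay on MT-ND1, MT-ND2, MT-CO1 (with 2), MT-CO3, MT-ND3, MT-ND4, MT-ND6 and MT-CYB, subunits of the respiratory chain, whose transcripts have no introns. The peaks of MT-CO3, MT-ND3, MT-ND4, MT-ND6 and MT-CYB spanned the whole listed transcript in every list, for MT-ND4 a length of 1378 nt. Fold enrichment on MT-ND4 was 8.40 in U2OS shMETTL14 and 7.70 in U2OS NC, and 8.45 in 143B shMETTL14 and 6.90 in 143B NC. MT-ND6, the only one of these genes on the minus strand, stood at 20.3 in U2OS shMETTL14 and 19 in U2OS NC, and at 20.5 in 143B shMETTL14 and 6.47 in 143B NC. MT-CO3 stood at 5.41 in U2OS shMETTL14 and 8.92 in U2OS NC, and at 5.14 in 143B shMETTL14 and 3.26 in 143B NC. The second MT-CO1 locus had the lowest values, 1.85 in U2OS shMETTL14 and 1.79 in U2OS NC, and 1.60 in 143B shMETTL14 and 1.52 in 143B NC.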
